A study of Mus musculus with 15 samples.

Results

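The genes described here encode ligands and receptors of the TGF-beta, activin and inhibin family, and were chosen by name. They are the inhibin alpha subunit Inha, the activin and inhibin beta subunits Inhba and Inhbb, the ligands Tgfb1, Tgfb2 and Tgfb3, the TGF-beta receptors Tgfbr1 and Tgfbr2, the co-receptor Tgfbr3 and the activin type II receptor Acvr2a. These 10 genes stand among 28876 in the table, and all 10 were among the 18553 genes tested, which reached 0.5 RPM in at least 1 library, where RPM is the number of reads on a gene per 1e6 reads on all genes. The libraries were made from the aorta-gonad-mesonephros (AGM) region of C57BL/6 mouse embryos, the region in which hematopoietic stem cells first appear. The labels give no mutation and no treatment in any group. At E9.5 and again at E10.5 the aorta and the tissue around it were cut into a dorsal piece (AoD) and a ventral one (AoV), which gave E9 AoD with E9 AoV and E10 AoD with E10 AoV, and a last group, E10 UGR, holds urogenital ridges of the later stage. Each of the 5 groups has 3 libraries, 15 in all, and each library holds RNA of whole dissected tissue pooled from many embryos in separate experiments. In such bulk tissue fewer cells of a type and less RNA per cell cannot be told apart.

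Ligands of this family are secreted as dimers. Inhbb or Inhba chains pair with each other to form activins, whereas a beta chain paired with the alpha chain encoded by Inha forms an inhibin, which opposes activin at its type II receptors. TGF-beta ligands are held in latent complexes in the matrix until released, bind the type II receptor Tgfbr2, which activates the type I receptor Tgfbr1, and the receptors then phosphorylate SMAD2 and SMAD3. Tgfbr3, also called betaglycan, presents TGF-beta2 in particular to Tgfbr2 and is also a co-receptor for inhibin. In embryos the family is known for the recruitment of smooth muscle around vessels and, through activin and inhibin, for signaling in the developing gonad.

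The sequences before the start sites of 4 genes are given because Inha and Inhbb followed a similar order over the groups, as did Inhba and Tgfb2. Each is the 250 bases before the annotated gene start in NCBIM37, the build of the alignment, read 5′ to 3′ on the strand of the gene, and capitals mark every match to a short motif searched on both strands.
Inha, chr1:75503402-75503651, plus strand: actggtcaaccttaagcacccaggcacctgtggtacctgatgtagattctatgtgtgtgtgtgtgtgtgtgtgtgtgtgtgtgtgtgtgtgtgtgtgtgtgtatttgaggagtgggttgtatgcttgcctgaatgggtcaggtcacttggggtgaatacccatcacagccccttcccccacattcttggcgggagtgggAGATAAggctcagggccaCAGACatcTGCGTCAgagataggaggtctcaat
Inhbb, chr1:121318826-121319075, minus strand: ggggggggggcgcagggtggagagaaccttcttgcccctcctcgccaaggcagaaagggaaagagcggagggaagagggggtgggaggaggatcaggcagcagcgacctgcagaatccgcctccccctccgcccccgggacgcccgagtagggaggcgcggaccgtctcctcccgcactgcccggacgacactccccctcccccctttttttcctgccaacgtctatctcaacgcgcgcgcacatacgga
Inhba, chr13:16103434-16103683, plus strand: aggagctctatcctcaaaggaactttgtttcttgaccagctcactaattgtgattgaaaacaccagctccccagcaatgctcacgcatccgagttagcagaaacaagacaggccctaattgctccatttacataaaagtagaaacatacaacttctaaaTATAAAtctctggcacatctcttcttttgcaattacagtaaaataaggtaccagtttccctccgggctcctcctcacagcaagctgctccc
Tgfb2, chr1:188529872-188530121, minus strand: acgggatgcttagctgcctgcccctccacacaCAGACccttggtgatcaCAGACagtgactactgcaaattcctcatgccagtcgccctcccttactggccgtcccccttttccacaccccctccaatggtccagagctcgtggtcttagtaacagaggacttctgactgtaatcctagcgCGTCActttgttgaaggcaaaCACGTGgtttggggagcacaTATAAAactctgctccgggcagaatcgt
Shares below are of 22375 windows of this length before protein-coding genes, counted on both strands. The element AAGGTCA, bound by NR5A1 and related nuclear receptors, was in none of the 4 printed windows and in 3.4% of all. Only these exact letters were searched, so a variant site would not be found. TGACG, the core of the cAMP response element, was in 19.4% of all windows, and its longer variant TGCGTCA, which contains that core, in 2% of all. The window of Inha held this variant between 25 and 19 bases before the start. Upstream of it lay CAGAC, the SMAD box, between 33 and 29 bases, which 40.9% of all windows held. AGATAA, read by GATA factors, was found in Inha between 51 and 46 bases and in 9.3% of all windows. Inhbb held no match to any of the 7 motifs in this window, which says only that these letters are not there. In Inhba the single match was the TATA element, spelled TATAAA here, between 91 and 86 bases, and 12.3% of all windows had this motif. Tgfb2 had the TATA element closest to its start, between 28 and 23 bases. Before it lay the E-box CACGTG, between 48 and 43 bases, which 6.5% of all windows held, then a core of the cAMP response element and a pair of SMAD boxes. The G and C content was 68% before Inhbb, 52% before Inha, 54% before Tgfb2 and 43.2% before Inhba, against a median of 54% over all windows. No match is shown to be a bound site.

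Depth, inferred from the steps between low RPM values, lay between 33.7 and 48.6 megareads per library. A count of 0 allows up to 3 reads, which were worth 0.0617 to 0.0889 RPM. Limits of this kind hold for counting error alone, since amplified reads are not independent molecules. Libraries of a group had Pearson correlations across genes between 0.993 and 0.997. For urogenital ridges and dorsal tissue the labels matched their markers: summed levels of 8 nephric duct and mesonephros genes were 336 to 351 RPM in E10 UGR and at most 104 RPM elsewhere, and those of 8 somite and sclerotome genes were 493 to 811 RPM in both AoD groups and at most 207 RPM elsewhere. Neural tube genes summed to 268 to 518 RPM in E9 AoD and to at most 89.0 RPM elsewhere, and gut endoderm and liver genes to 544 to 827 RPM in E9 AoV and to at most 36 RPM elsewhere. Neural crest and sympathoadrenal genes were highest in E10 AoD, at 335 to 402 RPM. The sum of 8 notochord and floor plate genes, a dorsal midline list, did not follow the labels and was highest in E9 AoV, at 552 to 595 RPM. There 2 of the 8, the epithelial keratins Krt8 and Krt18, were called higher than in E9 AoD and 1 was called lower, and the list's median log2 fold change was -0.08.

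Differences were fitted with limma on log2(RPM + 0.1), a scale that understates the change of low genes, and a gene was called at a Benjamini-Hochberg adjusted p below 0.05 over all tested genes with at least a 2-fold change. In E10 AoV against E9 AoV 3 of the 10 genes were called, all higher, where 11% of all tested genes were called and 6.04% were higher. In E10 AoV against E10 AoD 3 were called, all higher, beside 10.1% of all genes, 5.81% higher. The change from E9 AoD to E10 AoD took in 6 of the 10, all higher, beside 12.6% of all genes called and 8.6% higher, and that from E9 AoD to E9 AoV 5, all higher, beside 11.8% and 8.32%. Of the 5, 3 calls were left without E9 AoD replicate 3 and under quantile or median-of-ratios scaling, and 2 with a pseudocount of 0.5 or 1 RPM. With 1 RPM the 6 dorsal stage calls became 3 and the 2 of E10 AoV against E10 UGR became 1. Against E10 UGR, 2 genes were higher in E10 AoV, where 7.57% of all genes were called and 3.84% were higher, while E10 AoD had 2 higher and 2 lower, where 11.3% were called, 4.76% higher and 6.56% lower. The median log2 fold change of the 10 genes was 1.11 in the dorsal stage comparison and 0.99 between E9 AoV and E9 AoD, against -0.00 and 0.02 over all tested genes, and was 0.40, 0.14, 0.31 and 0.36 in the other 4 comparisons in the order given. Comparisons that share a group share its libraries and are not independent of each other. The study named Inhba, Inhbb and Tgfb2 from these same libraries, so their direction here is no independent evidence.

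**Figure D1:**
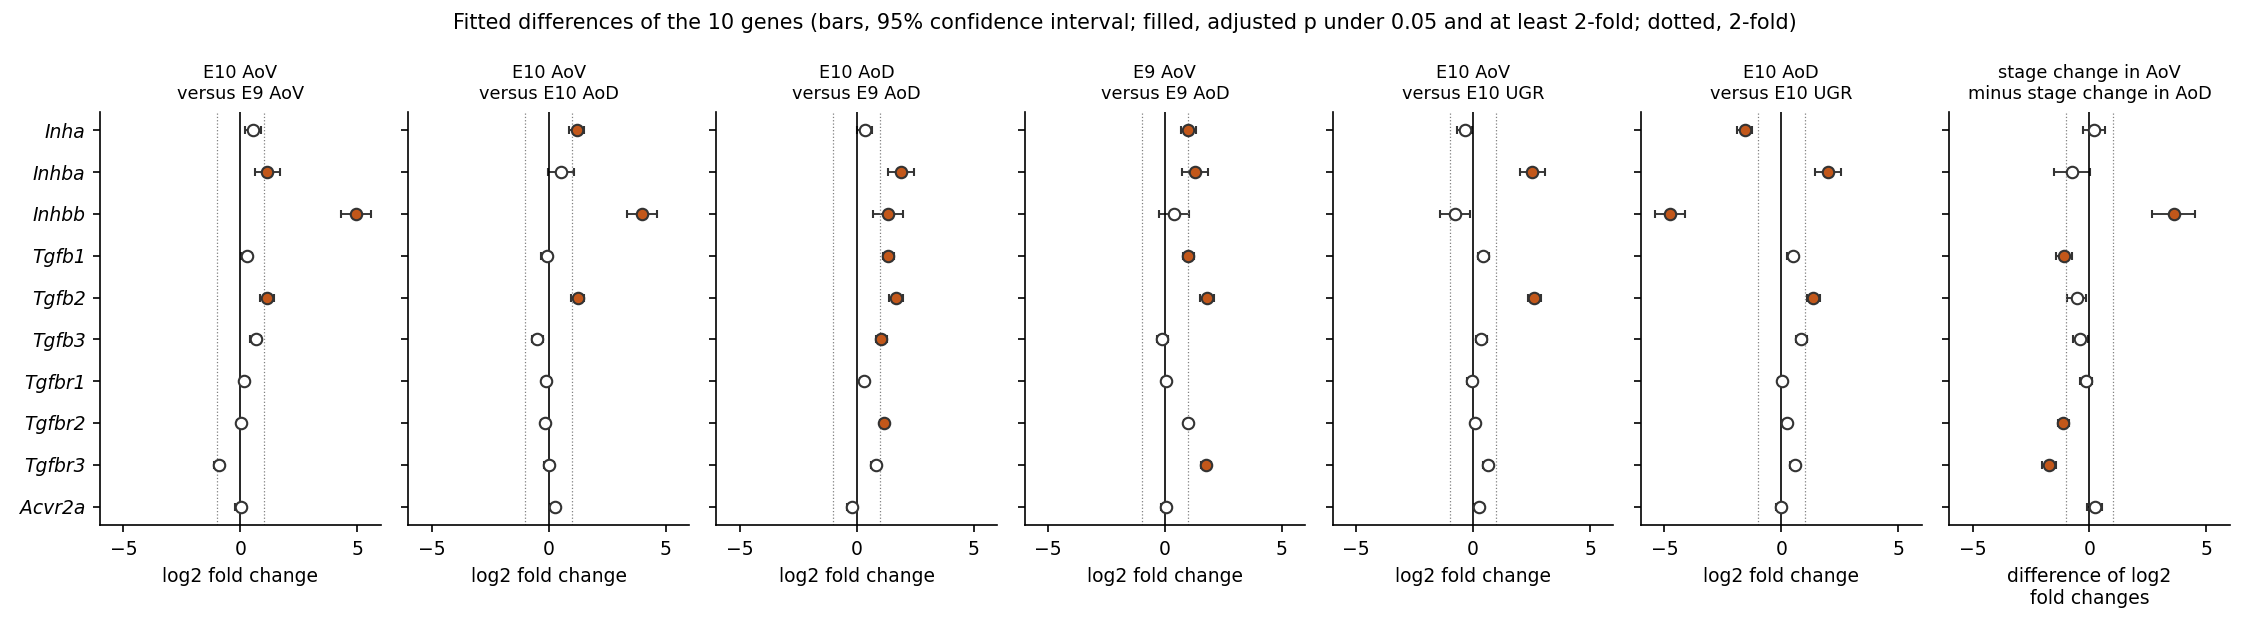
Log2 fold changes of the 10 genes in 6 comparisons, and in the last panel the stage change in AoV minus that in AoD, with 95% confidence intervals from limma. Filled points mark called differences and dotted lines a 2-fold change. Inhbb has the largest values of these genes, 4.95 in E10 AoV versus E9 AoV and -4.78 in E10 AoD versus E10 UGR.

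Inhbb, the activin B chain, was below 1 RPM in all aortic tissue except E10 AoV. Inhbb (ENSMUSG00000037035) lies on the minus strand of chromosome 1, 121312042 to 121318825 in NCBIM37, with 2 merged exons of 4255 bases. Its level was 0.147, 0.161 and 0.128 RPM in E9 AoD, 0.274, 0.162 and 0.238 RPM in E9 AoV, and in E10 AoD 0.794, 0.778 and 0.213 RPM. Libraries of E10 AoV held 10.2, 11.2 and 8.31 RPM, and those of E10 UGR 16.8, 17.8 and 16.6 RPM. All 6 libraries of the last 2 groups lay above the other 9, whereas E10 AoD replicate 3 fell within the range of E9 AoV.

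From E9 AoV to E10 AoV Inhbb rose from 0.225 ± 0.0572 to 9.90 ± 1.47 RPM (SD, n = 3), which is 4.95 on the log2 scale (SE 0.30, adjusted p = 9.45e-09, limma). In reads that was 29 against 1188 over the 3 libraries of each group, a ratio per depth of 43.8 with an exact 95% interval of 30.4 to 65.8 from counting error. Against E10 AoD the difference was 3.99 (SE 0.30, adjusted p = 8.15e-08), and E10 AoD lay below E10 UGR by 4.78 (adjusted p = 1.07e-08). The dorsal tissue also had a called increase of Inhbb with stage, from 0.145 ± 0.0166 to 0.595 ± 0.331 RPM (log2 fold change 1.35, SE 0.30, adjusted p = 0.00137), on 18 and 71 reads. That call was lost with a pseudocount of 0.5 RPM, at 0.71, and the increase was 1.86 without E10 AoD replicate 3. Between E10 AoV and E10 UGR the ranges were apart, at a log2 difference of -0.79 (adjusted p = 0.0630), which did not pass. The change with stage was larger in AoV than in AoD by 3.60 on the log2 scale (SE 0.43, adjusted p = 1.91e-05, limma interaction), where 11% of all tested genes had a called interaction.

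Inha, the chain that turns a beta chain into inhibin, was higher in ventral than in dorsal tissue at both stages and had its highest mean in the urogenital ridges. Inha (ENSMUSG00000032968) lies on the plus strand of chromosome 1, 75503652 to 75506941, with 1475 exon bases. Levels were 3.07, 2.42 and 1.88 RPM in E9 AoD and 5.95, 4.68 and 4.33 RPM in E9 AoV. At E10.5 they were 3.41, 2.79 and 3.08 RPM in AoD, 7.76, 7.03 and 6.89 RPM in AoV and 9.24, 9.07 and 9.52 RPM in UGR. Ranges of neighbouring groups in the order of means overlapped only between E10 AoD and E9 AoD. E10 AoV exceeded E10 AoD 2.34-fold in mean RPM (95% interval of the log2 difference 0.88 to 1.52, adjusted p = 1.57e-05), and E10 AoD was below E10 UGR by 1.56 (adjusted p = 9.30e-07). Between E10 AoV and E10 UGR the log2 difference was -0.36 (limma adjusted p = 0.0918), which did not pass. At E9.5 the ventral excess was 1.01 (adjusted p = 6.61e-05), just past the 2-fold threshold, and it fell short of it under 6 of the alternatives, between 0.78 and 0.97. From E9 AoV to E10 AoV the mean went from 4.99 ± 0.852 to 7.23 ± 0.467 RPM, a log2 difference of 0.54 (adjusted p = 0.00926) that passed the adjusted p but not the 2-fold threshold. The ventral and dorsal stage changes of Inha differed by 0.19 (95% interval -0.26 to 0.65, adjusted p = 0.558).

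Inhba, the activin A chain, was low in every group and was the subunit with the opposite order between ventral aorta and urogenital ridges. Inhba (ENSMUSG00000041324) lies on the plus strand of chromosome 13, 16103684 to 16119044, with 1980 exon bases. E10 AoV libraries held 0.986, 0.639 and 0.722 RPM, E10 AoD 0.461, 0.677 and 0.402 RPM, and E9 AoV 0.319, 0.301 and 0.261 RPM. E9 AoD held 0.0492, 0.0537 and 0.0855 RPM, and E10 UGR 0, 0.0822 and 0.0845 RPM. The sums were 94, 62, 38, 8 and 7 reads in that order of groups, so E9 AoD and E10 UGR were near the level of 3 reads per library. Only the 2 highest and the 2 lowest groups overlapped with their neighbour in this order.

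Inhba rose with stage by 1.15 in the ventral tissue (SE 0.25, adjusted p = 0.00191) and by 1.89 in the dorsal tissue (adjusted p = 1.63e-05), and was higher in E9 AoV than in E9 AoD by 1.28 (adjusted p = 0.000771). Against E10 UGR it was higher in E10 AoV by 2.54 (adjusted p = 2.65e-06) and in E10 AoD by 2.01 (adjusted p = 1.45e-05). By reads the E10 AoV to E10 UGR ratio was 13.1, with an exact 95% interval of 6.13 to 33.6. The size of these values depends on the pseudocount: at 1 RPM the 5 differences were 0.46, 0.51, 0.28, 0.75 and 0.52 and none reached 2-fold, and without E10 AoV replicate 1 the ventral increase with stage was 0.99. E10 AoV and E10 AoD differed by 0.53 (95% interval -0.01 to 1.08, adjusted p = 0.124).

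**Figure D2:**
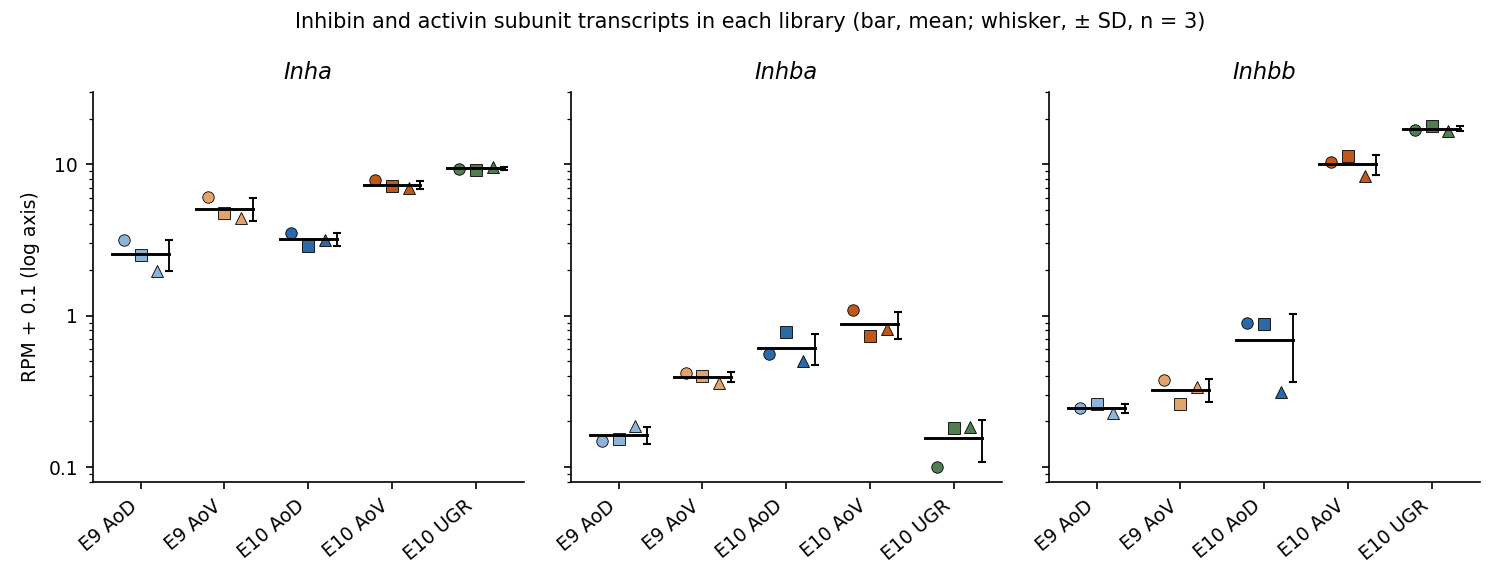
Inha, Inhba and Inhbb in each of the 15 libraries, as RPM + 0.1 on a log axis, by group. Circles, squares and triangles are replicates 1, 2 and 3, bars are means and whiskers SD (n = 3). Inhbb in E10 AoV (8.31 to 11.2 RPM) and E10 UGR (16.6 to 17.8 RPM) stands above all other groups, and Inhba in E10 UGR (0 to 0.0845 RPM) lies with E9 AoD.

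Levels of different genes were compared per kilobase of merged exon, as RPKM. In E10 AoV Inha stood at 4.90 ± 0.317, Inhbb at 2.33 ± 0.345 and Inhba at 0.395 ± 0.0915 RPKM, and in E10 UGR these were 6.29 ± 0.154, 4.01 ± 0.151 and 0.0281 ± 0.0243 RPKM. Inhbb made up 99.3% ± 0.598 of the summed beta subunits in E10 UGR and 85.4% ± 3.28 in E10 AoV, against 33.0% ± 12.4 in E10 AoD and 26.1% ± 5.32 in E9 AoV. The share of 52.5% ± 9.90 in E9 AoD rests on 18 Inhbb and 8 Inhba reads. Inha transcripts per beta subunit transcript went down from 25.9 ± 8.84 in E9 AoD and 16.7 ± 1.13 in E9 AoV to 5.79 ± 2.34 in E10 AoD, then 1.82 ± 0.201 in E10 AoV and finally 1.56 ± 0.0935 in E10 UGR. The E10 AoV and E10 UGR ranges were 1.61 to 2.02 and 1.46 to 1.64, which overlapped. No test was run on these proportions, and they describe transcripts, not dimers.

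Tgfb2 was the TGF-beta ligand that separated the groups most, with its highest level in E10 AoV. Tgfb2 (ENSMUSG00000039239) lies on the minus strand of chromosome 1, 188447065 to 188529871, with 4842 exon bases. It was measured at 127, 128 and 125 RPM in E10 AoV, 52.8, 63.5 and 57.7 RPM in E9 AoV, and in E10 AoD 53.0, 63.2 and 45.2 RPM. E10 UGR had 22.0, 23.4 and 16.6 RPM and E9 AoD 15.9, 19.3 and 14.9 RPM. E10 AoV was above all other libraries, while E9 AoV overlapped with E10 AoD, and E10 UGR with E9 AoD.

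Tgfb2 rose with stage in the ventral tissue, from 58 ± 5.36 to 127 ± 1.53 RPM (log2 fold change 1.13, SE 0.13, adjusted p = 7.71e-06), and in the dorsal tissue, from 16.7 ± 2.31 to 53.8 ± 9.03 RPM (1.68, SE 0.13, adjusted p = 9.23e-08). It was higher ventrally than dorsally at E9.5 by 1.79 (adjusted p = 6.32e-08) and at E10.5 by 1.25 (adjusted p = 3.20e-06). Against E10 UGR the difference was 2.63 for E10 AoV (adjusted p = 4.94e-09) and 1.38 for E10 AoD (adjusted p = 9.85e-07). The stage change was smaller in AoV than in AoD by 0.55 (interaction -0.55, SE 0.19, adjusted p = 0.0438), under the 2-fold threshold. Every one of the 6 calls held under all alternatives run.

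Tgfb1, which acts on endothelial, smooth muscle and hematopoietic cells, was lowest in E9 AoD. Tgfb1 (ENSMUSG00000002603) lies on the plus strand of chromosome 7, 26472021 to 26490096. Its level was 8.97, 9.91 and 6.84 RPM in E9 AoD against 19.4, 16.2 and 16.0 RPM in the E9 AoV libraries. At E10.5 it was 22.6, 22.0 and 20.4 RPM in AoD, 20.6, 20.9 and 20.4 RPM in AoV and 15.5, 15.9 and 14.5 RPM in UGR. All 3 libraries of E9 AoD lay below the other 12, and E10 AoD and E10 AoV overlapped. It rose from E9 AoD to E10 AoD by 1.34 (SE 0.11, adjusted p = 1.15e-07) and was higher in E9 AoV than in E9 AoD by 1.01 (adjusted p = 2.97e-06), a call that fell short of 2-fold under the same 6 alternatives as that of Inha, between 0.85 and 0.97. From E9 AoV to E10 AoV the difference was 0.27 (95% interval 0.03 to 0.50, adjusted p = 0.0606), and the stage change in AoV was 1.08 below that in AoD (interaction -1.08, adjusted p = 0.000111). At E10.5 the ventral and dorsal levels differed by -0.07 (95% interval -0.30 to 0.17, adjusted p = 0.673).

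Tgfb3 was highest in E10 AoD, where all 3 libraries lay above those of the other groups. Tgfb3 (ENSMUSG00000021253) lies on the minus strand of chromosome 12, 87397694 to 87419991. Its E10 AoD libraries had 25.2, 26.2 and 21.6 RPM and its E10 AoV libraries 16.6, 20.8 and 14.7 RPM. It was 13.0, 14.4 and 12.9 RPM in E10 UGR, 12.1, 11.6 and 11.4 RPM in E9 AoD and between 10.2 and 11.9 RPM in the 3 libraries of E9 AoV. Only the E9.5 groups overlapped. Tgfb3 rose from E9 AoD to E10 AoD by 1.05 (SE 0.11, adjusted p = 1.47e-06), a value of 0.99 without E10 AoD replicate 2 and 0.94 after quantile normalization. E10 AoV was below E10 AoD by 0.49 (log2 fold change -0.49, adjusted p = 0.00248) and above E9 AoV by 0.66 (adjusted p = 0.000188), both short of 2-fold. The ventral aorta at E10.5 thus held more Tgfb2 and less Tgfb3 than the dorsal aorta.

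**Figure D3:**
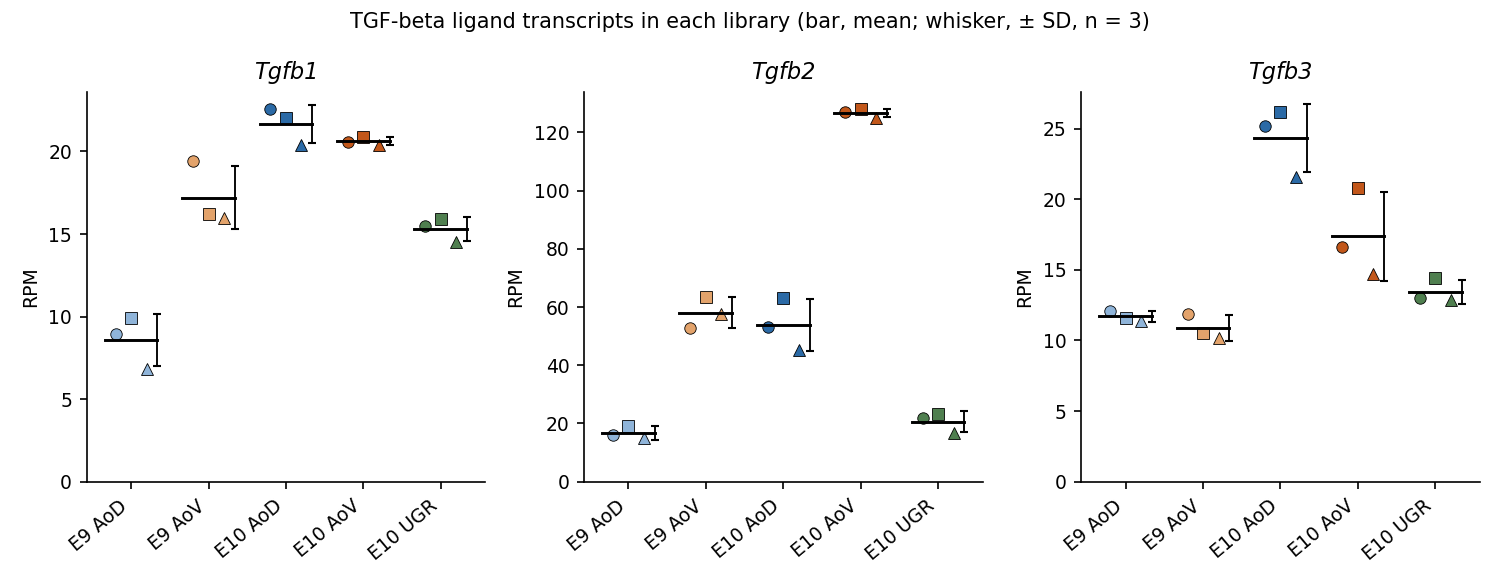
Tgfb1, Tgfb2 and Tgfb3 in each of the 15 libraries, in RPM on axes that start at 0, by group, with replicates 1, 2 and 3 as circles, squares and triangles, means as bars and SD as whiskers (n = 3). Tgfb2 reaches 125 to 128 RPM in E10 AoV, Tgfb1 is lowest in E9 AoD (6.84 to 9.91 RPM) and Tgfb3 is highest in E10 AoD (21.6 to 26.2 RPM).

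Summed over the 3 ligands, TGF-beta transcripts were 39.4 ± 1.32 RPKM in E10 AoV, 26.8 ± 2.88 in E10 AoD, 21.9 ± 0.687 in E9 AoV, 14.2 ± 1.21 in E10 UGR and 10.3 ± 1.09 in E9 AoD, with no overlap between neighbours in this order. Tgfb2 made up 66.5% ± 1.46 of the sum in E10 AoV and 54.7% ± 4.52 in E9 AoV, against 41.3% ± 2.69 in E10 AoD, 33.6% ± 1.82 in E9 AoD and 29.9% ± 2.86 in E10 UGR. In E10 UGR Tgfb1 had the largest share, 42.2% ± 1.66, and in E9 AoD the shares were 32.5% ± 2.76 for Tgfb1, 33.6% ± 1.82 for Tgfb2 and 33.9% ± 3.32 for Tgfb3. The ventral groups had the smallest Tgfb3 shares, 14.7% ± 1.17 and 13.0% ± 1.89 at E9.5 and E10.5.

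Among the receptors, Tgfbr1 was abundant and varied little. Tgfbr1 (ENSMUSG00000007613, chromosome 4, 47366094 to 47427803, plus strand) encodes the type I receptor kinase. Its level ranged from 248 to 322 RPM over the 6 libraries of E9.5 and from 321 to 377 RPM over the 9 of E10.5, and it was called in none of the 6 comparisons, with log2 fold changes between -0.09 and 0.31. At an adjusted p below 0.05 alone, 1 of these passed, the dorsal stage difference of 0.31 (adjusted p = 0.00690). Acvr2a (ENSMUSG00000052155, chromosome 2, 48669629 to 48758789, plus strand), a type II receptor for activins and inhibins, ranged from 45.5 to 67.7 RPM over all 15 libraries and was called in no comparison, with differences between -0.22 and 0.26 and limma adjusted p between 0.0612 and 0.980, while 2 of the 6 passed at an unadjusted p below 0.05. Its last exons overlap those of Orc4 on the other strand over 446 bases, and without strand in the counts reads of the 2 genes there cannot be told apart.

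Tgfbr2, the type II receptor that binds TGF-beta, divided E9 AoD from all other tissue. Tgfbr2 (ENSMUSG00000032440) lies on the minus strand of chromosome 9, 115993415 to 116084383. The E9 AoD libraries had 15.1, 17.6 and 15.1 RPM, whereas E9 AoV had 29.4, 34.9 and 30.3 RPM, E10 AoD 36.4, 37.8 and 33.3 RPM, E10 AoV 32.4, 34.0 and 30.6 RPM, and E10 UGR 30.6, 31.8 and 29.3 RPM. The 4 groups other than E9 AoD overlapped with their neighbours in the order of means. Tgfbr2 rose from E9 AoD to E10 AoD by 1.17 (SE 0.08, adjusted p = 1.73e-08). The difference of E9 AoV from E9 AoD was 0.98 (SE 0.08, adjusted p = 1.24e-07), just short of 2-fold, and passed it at 1.05, 1.03 and 1.01 without E9 AoD replicate 2, E9 AoV replicate 1 and E9 AoV replicate 3. From E9 AoV to E10 AoV it was 0.04 (95% interval -0.13 to 0.21, adjusted p = 0.722), and the stage changes of AoV and AoD differed by -1.13 (SE 0.11, adjusted p = 3.28e-06).

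Tgfbr3, the betaglycan co-receptor, was highest in E9 AoV and changed with stage in opposite directions in the ventral and the dorsal tissue. Tgfbr3 (ENSMUSG00000029287) lies on the minus strand of chromosome 5, 107535589 to 107718648. It was 82.2, 97.3 and 82.7 RPM in the E9 AoV libraries. Those of E10 AoV had 49.6, 47.6 and 42.9 RPM, those of E10 AoD 48.0, 44.0 and 46.0 RPM. The lowest values were 29.1, 30.9 and 31 RPM in E10 UGR and 25.7, 30.6 and 21.7 RPM in E9 AoD. E9 AoV was above every other library, and the E10.5 aortic groups overlapped, as did E10 UGR and E9 AoD. At E9.5 the ventral tissue exceeded the dorsal by 1.75 (SE 0.10, adjusted p = 5.18e-09), and at E10.5 by 0.02 (95% interval -0.20 to 0.24, adjusted p = 0.905). The stage difference was -0.90 in AoV (adjusted p = 4.22e-06) and 0.83 in AoD (adjusted p = 6.04e-06), each short of 2-fold, and these differed from each other by -1.73 (SE 0.14, adjusted p = 6.49e-07).

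**Figure D4:**
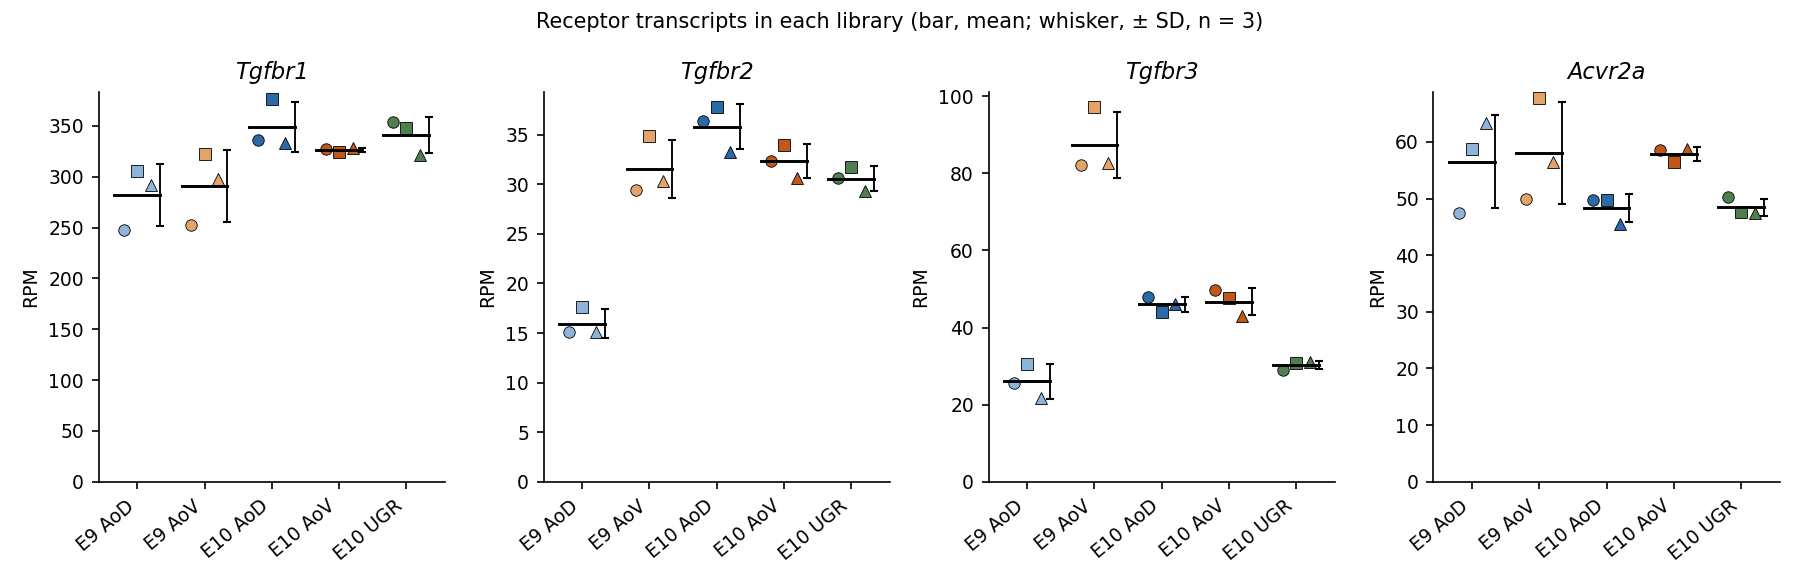
Tgfbr1, Tgfbr2, Tgfbr3 and Acvr2a in each of the 15 libraries, in RPM on axes that start at 0, by group, with replicates 1, 2 and 3 as circles, squares and triangles, means as bars and SD as whiskers (n = 3). Tgfbr2 is lowest in E9 AoD (15.1 to 17.6 RPM), Tgfbr3 highest in E9 AoV (82.2 to 97.3 RPM), and Acvr2a overlaps between most groups. Tgfbr1 spans 248 to 322 RPM at E9.5 and 321 to 377 RPM at E10.5.

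Per kilobase Tgfbr1 exceeded Tgfbr2 in every library. The ratio of RPKM was 21.9 ± 1.84 in E9 AoD and 11.4 ± 0.761, 12.1 ± 0.541, 12.5 ± 0.737 and 13.8 ± 0.443 in the ventral E9.5 tissue, the dorsal and ventral E10.5 tissue and the urogenital ridges. Tgfbr3 per Tgfbr2 was 3.42 ± 0.0449 in E9 AoV, against 2.01 ± 0.203 in E9 AoD, 1.79 ± 0.0927 in E10 AoV, 1.59 ± 0.138 in E10 AoD and 1.23 ± 0.0702 in E10 UGR. The higher Tgfbr3 in E9 AoV was thus also a higher level relative to Tgfbr2.

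**Figure D5:**
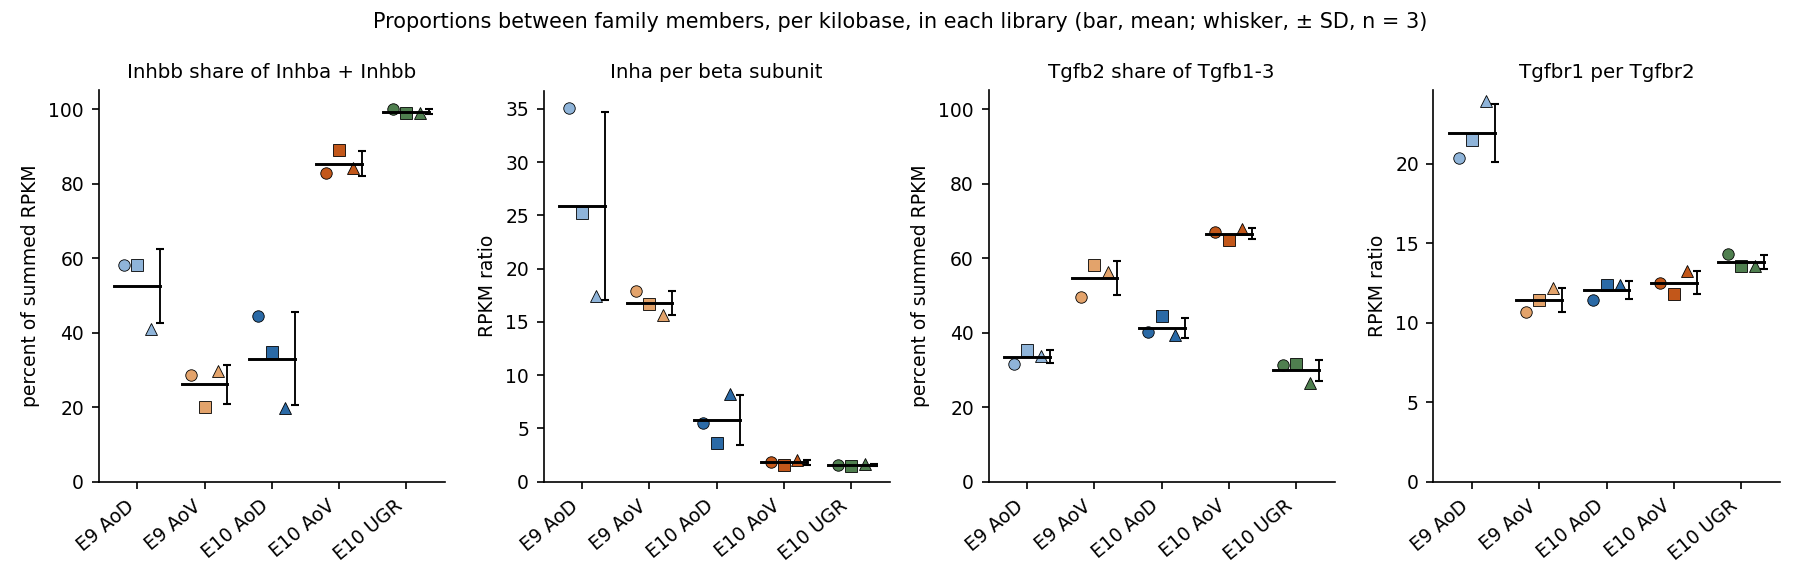
Ratios of RPKM between family members in each of the 15 libraries: the share of Inhbb in the 2 beta subunits, Inha per beta subunit, the share of Tgfb2 in the 3 TGF-beta ligands and Tgfbr1 per Tgfbr2, by group, with means as bars and SD as whiskers (n = 3). Inhbb makes up 82.8% to 89.1% of beta subunits in E10 AoV and at least 98.9% in E10 UGR, and Tgfb2 64.9% to 67.7% of ligands in E10 AoV.

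Over the 15 libraries the log2 levels of the 10 genes were compared in pairs as a description, in which the points share the same libraries and 5 groups. The highest Pearson correlations were 0.939 between Tgfb1 and Tgfbr2, 0.922 between Inhba and Tgfb2 and 0.857 between Inha and Inhbb, while Inhba and Inhbb, the interchangeable beta chains, had 0.07. Of all tested genes, those most like Inhbb included 6030408B16Rik (0.989) and Amhr2 (0.986), the receptor for anti-Müllerian hormone. Amhr2 stood at 17.2 and 20.6 RPM in E10 AoV and E10 UGR and at most 1.12 RPM elsewhere, as group means. Nearest to Inha were Chchd10 (0.974), Dhrs4 (0.973) and Ybx2 (0.972), and nearest to Inhba were Tacc1 (0.947), the collagen cross-linking enzyme Lox (0.946) and Pam (0.945). Tgfb2 was followed by the phosphatase Ptpre (0.979), the matrix protein Emilin3 (0.979) and Runx1t1 (0.97).

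Among 7 tested secreted factors of the same SMAD branch outside the 10 genes, Lefty1 and Lefty2 included, between 2 and 4 were called in each comparison. Over the 6 comparisons 7.57% to 12.6% of all tested genes were called. Lower calls alone took in 4.99% of all tested genes in E10 AoV against E9 AoV, 4.29% against E10 AoD and 3.73% against E10 UGR. Gdf3, a nodal-related ligand, was 0.772 ± 0.221 RPM in E10 AoV against 0.101 ± 0.0284 in E9 AoV, a log2 fold change of 2.10 (adjusted p = 7.66e-06), and 0.0658 ± 0.0129 in E10 AoD. Mstn, the muscle growth inhibitor myostatin, was lower in E10 AoV, at 0.692 ± 0.166 RPM, than in E10 AoD, at 9.07 ± 1.84 RPM (log2 fold change -3.54, adjusted p = 9.48e-08). Of the 6 other receptors and co-receptors tested, 1 was higher in E10 AoV than in E9 AoV, and 2 were higher than in E10 AoD. In these comparisons 6.04% and 5.81% of all tested genes were higher. None of the 6 was called by limma between E10 AoD and E9 AoD, where 12.6% of all genes were called, although all 6 had an unadjusted p below 0.05. In that comparison 57.8% of all tested genes had an adjusted p below 0.05. Acvr1c, a type I receptor for activin B and nodal, rose from 0.301 ± 0.0757 to 1.81 ± 0.492 RPM between E9 AoV and E10 AoV (log2 fold change 2.24, adjusted p = 9.23e-07). Bambi, a pseudoreceptor without kinase, was higher ventrally at both stages, by 1.63 at E9.5 (adjusted p = 2.28e-08) and 1.58 at E10.5 (adjusted p = 3.23e-08).

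Of 18 tested proteins that bind or activate the ligands outside the cell, 8 were higher and 1 lower in E10 AoD than in E9 AoD, with a median log2 fold change of 0.83, where 8.6% of all tested genes were higher and 4% lower. In E10 AoV 3 were higher and 1 lower than in E9 AoV, with a median of 0.22, where 6.04% of all were higher and 4.99% lower. Fst, follistatin, which binds activin, fell from 24.4 ± 3.60 RPM in E9 AoD to 4.61 ± 0.218 RPM in E10 AoD (log2 fold change -2.37, adjusted p = 8.44e-10) and was lower in E10 AoV than in E10 UGR by 1.26 (adjusted p = 7.93e-07). Ltbp1, which anchors latent TGF-beta in the matrix, was 321 ± 16.5 RPM in E10 AoV against 124 ± 15.1 in E10 AoD (1.38, adjusted p = 4.58e-06). Ltbp4, a related protein, rose with stage by 1.05 in AoV (adjusted p = 2.18e-06) and by 1.53 in AoD (adjusted p = 3.36e-08). Dcn, the proteoglycan decorin, was 49.1 ± 4.16 RPM in E9 AoV and 4.28 ± 1.77 in E9 AoD (3.59, adjusted p = 2.83e-08) and fell from E9 AoV to E10 AoV by 1.09 (log2 fold change -1.09, adjusted p = 0.00229).

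Inside the cell, 14 SMAD mediators and inhibitors had 2 called genes, both higher, in either stage comparison, a share near the 11% and 12.6% of all tested genes called there. None was called by limma between E9 AoV and E9 AoD, where 11.8% of all tested genes were called. There 5 of the 14 had an unadjusted p below 0.05, while 47.7% of all tested genes had even an adjusted p below 0.05. The 2 genes called in the stage comparisons were Pmepa1 and Skil, both inhibitors of SMAD signaling that are also induced by it. Pmepa1 rose by 1.24 in AoV (adjusted p = 2.98e-06) and 1.83 in AoD (adjusted p = 4.17e-08), and Skil by 1.10 (adjusted p = 7.96e-08) and 1.07 (adjusted p = 6.84e-08). Group means of Smad2 lay between 59.3 and 66.0 RPM, of Smad3 between 153 and 177 RPM and of Smad4 between 140 and 160 RPM.

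Among 20 genes known to respond to TGF-beta or activin in various cells, 12 were higher and 1 lower in E10 AoD than in E9 AoD. Their median log2 fold change there was 1.19, and 8.6% of all tested genes were higher and 4% lower. In E9 AoV 9 of the 20 were higher and 1 lower than in E9 AoD, with a median of 0.79. For that comparison 8.32% of all tested genes were higher and 3.47% lower. In E10 AoV 5 were higher and 2 lower than in E9 AoV, where 6.04% of all tested genes were higher and 4.99% lower. Against E10 AoD, 1 was higher and 1 lower in E10 AoV, near the 5.81% and 4.29% of all tested genes. Against E10 UGR, 10 were higher and 2 lower in E10 AoV, where 3.84% of all were higher and 3.73% lower. Acta2 and Tagln, contractile proteins of smooth muscle, rose with stage in the dorsal tissue by 3.10 (adjusted p = 6.27e-08) and 2.19 (adjusted p = 2.81e-07), and both also stand in the smooth muscle marker list. Lefty2, Fst, Ltbp2, Skil, Smad7 and Pmepa1 of the 20 were already counted in the lists given before. Counts of these lists are therefore not independent of each other. The signed log2 stage change was called lower in AoV than in AoD for 10 of the 20 and higher for 1, Fst. Among all tested genes 6.89% and 4.12% were called in these directions. A lower value need not be a smaller change. Group means of Col1a1 went from 872 to 453 RPM in AoV and from 112 to 312 RPM in AoD. Those of Fst fell in both, from 9.04 to 6.09 RPM in AoV and from 24.4 to 4.61 RPM in AoD.

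Marker lists of other cell types moved with several of these results, and their part in them was not tested. All 8 genes of the gonad, adrenal and coelomic epithelium list were in the table, and their sum was 751 to 800 RPM in E10 AoV and 694 to 761 RPM in E10 UGR, the groups with high Inhbb, against 48.7 to 114 RPM in E9 AoD, 186 to 196 RPM in E9 AoV and 57.6 to 84.1 RPM in E10 AoD. Of its 8 genes, 7 had a called excess in E10 AoV over E10 AoD, and Cyp11a1 was under 0.5 RPM in all libraries of the 3 low groups. The 8 smooth muscle and pericyte genes summed to 1160 to 1229 RPM in the E10 AoV libraries, 767 to 923 RPM in those of E10 AoD, 619 to 624 RPM in those of E9 AoV, 342 to 384 RPM in E10 UGR and 184 to 304 RPM in E9 AoD, which for the highest and lowest groups is the order of Tgfb2. The 8 endothelial genes, which stand beside Tgfb1 and Tgfbr2, summed to 316 to 441 RPM in E9 AoD and to between 471 and 813 RPM in the other groups. Hematopoietic genes, 7 of 8 in the table, went from 17.2 to 21.0 RPM in E9 AoD to 63.7 to 75.7 RPM in E10 AoV, and macrophage genes, also 7 of 8, from at most 13.4 RPM at E9.5 to at least 42.3 RPM at E10.5. Germ cell genes were at 83.3 to 104 RPM in both ventral groups and at most 44.3 RPM elsewhere. Gdf3 did not follow the sum of this list at E9.5. Its mean was 0.101 RPM in E9 AoV against 0.772 RPM in E10 AoV. Taken singly, the 8 germ cell genes had a median log2 fold change of 1.44 from E9 AoV to E10 AoV. Of these changes, 4 were called increases and 1 a called decrease. Gdf3 rose over the same interval, by 2.10. Erythroid genes ranged from 2986 to 14131 RPM and overlapped between E9 AoD and E9 AoV. With Tgfbr3 the gut endoderm and liver list was highest in E9 AoV, as given above.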

How the data were processed

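RNA from pools of dissected AGM tissue was made into TruSeq libraries and read from a single end over 50 bases. The authors aligned reads with TopHat and Bowtie 0.12.3 to NCBI37/mm9, counted them over Ensembl genes with GeneProf, which shares multi-matching reads among genes, and deposited RPM rounded to 3 significant digits, without length or between-library adjustment. The deposited table also holds 12 columns of the authors' DESeq comparisons, log2 fold changes and adjusted p-values, which were not used. As the unit is RPM and only 62.4% to 64.8% of low values were whole multiples of 1 read, no count test was run. Genes with at least 0.5 RPM in 1 library were tested with limma 3.58.1 (R 4.3.3) after a log2(RPM + 0.1) transform, with 5 group means over 15 libraries, an intensity trend and Benjamini-Hochberg adjustment over 18553 genes. The 0.1 RPM is worth 3.37 to 4.86 reads. RPKM used merged exon lengths of a GENCODE annotation of NCBIM37, whose release differs from that of the authors' counts, so absolute ratios carry that limit. Position, sequence and exon length come from that annotation and genome. Intervals of read ratios are exact conditional binomial (95%). Same-numbered libraries of E9 AoD and E9 AoV deviated together (correlations 0.452, 0.347 and 0.19). A pairing by number is inferred from this alone, since neither the labels nor the study's methods say that a number marks a shared experiment. Genes named outside the 10 were the called genes with the largest changes of each list, up to 3 a direction and comparison, and the 3 genes most correlated with Inha, Inhba, Inhbb and Tgfb2. Some genes that this rule takes in are not reported here. Smad2, Smad3, Smad4, Krt8 and Krt18 were added after their values were seen. Groups come from the sample labels. The 10 genes, the lists and the tests were chosen with earlier results of these data known. Alternatives covered the filter, pseudocount, scaling, trend, samples fitted, fold threshold, replicate block and each library left out. The fit was also run on simulated whole counts, with the same extra spread for every gene and no shared deviation of same-numbered libraries. These settings differ from the data, so that run does not vouch for the calls here.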

Additional observations from a re-analysis of the deposited data

Results flagged for a closer look

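For 4 of the 10 genes the stage change differed between the ventral and the dorsal aorta by the limma interaction term, on the log2 scale and with Benjamini-Hochberg adjustment. Of all tested genes 11% had a called interaction, 4.12% with a positive and 6.89% with a negative difference. Inhbb rose more in AoV, with a difference of 3.60 (adjusted p = 1.91e-05), and the difference was 3.10 without E10 AoD replicate 3 and 2.69 with a pseudocount of 1 RPM. Tgfbr3 had a difference of -1.73 (adjusted p = 6.49e-07), with a lower level at E10.5 in all 3 AoV libraries and a higher level in all 3 AoD libraries. For Tgfbr2 the difference was -1.13 (adjusted p = 3.28e-06), and for Tgfb1 it was -1.08 (adjusted p = 0.000111). The Tgfb1 difference fell short of 2-fold at -0.92 without E9 AoD replicate 3, -0.99 without E9 AoV replicate 1 and -0.97 after quantile normalization. In these last 3 genes E9 AoD was the group with the lowest mean, and neural tube markers were highest in that group, whose part was not tested. Groups of 3 libraries are too small for the test of single outlying libraries.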

How the results depend on the processing

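Of 1760 log2 fold changes of the 10 genes over the alternatives, 1694 kept direction and side of the threshold. That count says little about stability, because many of these values could not move. Changes of filter, trend, samples fitted, fold threshold or replicate block left each log2 fold change as it was. So did leaving out a library of a group outside the comparison. With a pseudocount of 1 RPM the genes called over the whole table were 1104, 1020, 1281, 1196, 735, 1143 and 1174 in the 6 comparisons in the order of the report's plot and the interaction (2046, 1874, 2337, 2187, 1404, 2100 and 2044 as reported), and the 10 genes gave 3 calls in E10 AoD versus E9 AoD, 2 in E9 AoV versus E9 AoD and 1 in E10 AoV versus E10 UGR. With 0.5 RPM, E9 AoV versus E9 AoD gave 2 calls, and other pathway genes gave 11 with either pseudocount. Quantile normalization and median-of-ratios scaling each left 3 of the 5 there. Without the fold threshold 6, 5 and 8 of the 10 passed in E10 AoV versus E9 AoV, E10 AoV versus E10 UGR and E10 AoD versus E10 UGR, pathway genes were 35, 29, 44, 43, 40, 40 and 33, and all genes 8537, 6587, 10730, 8846, 5405, 7282 and 5214. Leaving out 1 library gave 3 to 6 calls among the 10 in E9 AoV versus E9 AoD, the 3 without E9 AoD replicate 3. Signs turned only at small differences that did not pass: Tgfbr3 in E10 AoV versus E10 AoD was -0.00092 and -0.0072 under quantile and median-of-ratios scaling, and Acvr2a in E10 AoD versus E10 UGR 0.040 and 0.056. Leaving out 1 library gave ranges across 0 for Tgfbr1 (-0.046 to 0.14) and Acvr2a (-0.082 to 0.14) in E9 AoV versus E9 AoD, Tgfbr2 (-0.0096 to 0.11) and Acvr2a (-0.094 to 0.12) in E10 AoV versus E9 AoV, Tgfbr3 (-0.025 to 0.080) in E10 AoV versus E10 AoD, and Tgfbr1 (-0.026 to 0.063) and Acvr2a (-0.027 to 0.038) in E10 AoD versus E10 UGR. The cause was not tested.

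With the replicate number as a block, the 10 genes gave 3, 3, 6, 5, 2, 4 and 4 calls, and all genes 2045, 1876, 2339, 2188, 1408, 2102 and 2067, and no call of the 10 changed. Across the other pairs of groups at least 1 same-numbered pair had a correlation of 0.1 or less, and 11 of 15 libraries correlated best with their own number. Depth limits Inhba in E9 AoD and E10 UGR and Inhbb in E9 AoD, which rest on 8, 7 and 18 reads.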
